A study of Mus musculus with 23 samples.

Results

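Ubiquitin ligases described in skeletal muscle atrophy were followed in the quadriceps and the epididymal fat pad of mice with or without pancreatic tumors, 9 genes in all: Fbxo32, Trim63, Fbxo30, Fbxo31, Fbxo21, Ubr2, Mul1, Traf6 and Nedd4. The members were found by gene symbol, and all 9 of 9 were listed among the 12831 genes of the quadriceps table and among the 16962 genes of the fat table. No member was removed by the filter on low counts. All hosts were male C57BL/6J mice, 8 weeks old at surgery, and no host gene was edited. The no tumor mice had sham surgery, the KPC mice received mouse KPC pancreatic cancer cells injected into the pancreas, and the KPC IL6KO mice received KPC cells in which the Il6 gene had been disrupted by CRISPR/Cas9. The KPC cells were a selected control clone that had received a CRISPR plasmid with a null guide, and the KPC IL6KO cells were also a selected clone. The absence of IL-6 from the cancer cells therefore cannot be told apart from other features of either clone. The study reported IL-6 staining in the stroma of both tumor types. The study reported larger tumors in KPC than in KPC IL6KO mice, and tumor size was not modeled here. All groups were killed together, once any one of them had reached a set mean loss of body weight or a set low fat mass. There were 3 no tumor, 4 KPC and 4 KPC IL6KO quadriceps libraries and 4 libraries in each fat group. Muscle and fat libraries carry different replicate numbers, and whether they came from the same mice is not stated. The comparison of KPC with no tumor shows the change under a tumor. That of KPC IL6KO with KPC shows the difference between tumors of these clones, without and with IL-6 from the cancer cells.

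Ubiquitin is activated by an E1 enzyme, passed to an E2 conjugating enzyme and attached to a protein by an E3 ligase, which chooses the substrate. Chains of ubiquitin send many substrates to the proteasome. F-box proteins (Fbxo genes) are the substrate receptors of SCF ligases, RING proteins such as Trim63 bring the E2 to the substrate, and HECT ligases such as Nedd4 take over the ubiquitin themselves. Fbxo32 (atrogin-1, also MAFbx) and Trim63 (MuRF1) are striated muscle ligases whose transcripts are known to rise in many forms of muscle loss. FoxO factors, the glucocorticoid receptor, NF-kappaB, STAT3 and C/EBP factors are among their described regulators.

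The 300 base windows around the RefSeq gene starts (250 bases before and 50 after, GRCm38.p6) were searched on both strands for 7 sets of letters, because these factors are described at atrophy genes. A window was matched for 8 of 9 members, with 2 for Nedd4 and none for Fbxo32. The letters were the FoxO core GTAAACA, the FoxO insulin-response core TGTTTTG, the STAT palindrome TTCNNNGAA, the glucocorticoid receptor core AGAACA, a kappaB site, the C/EBP site TTGCGCAA and the E-box CAGCTG. The windows of 3 members are shown, with every match in capitals: Trim63 (chr4:134314870-134315169, plus strand), Traf6 (chr2:101678170-101678469, plus strand) and Fbxo31 (chr8:121578757-121579056, minus strand). None of the letters occurred in the Fbxo31 window.
Trim63: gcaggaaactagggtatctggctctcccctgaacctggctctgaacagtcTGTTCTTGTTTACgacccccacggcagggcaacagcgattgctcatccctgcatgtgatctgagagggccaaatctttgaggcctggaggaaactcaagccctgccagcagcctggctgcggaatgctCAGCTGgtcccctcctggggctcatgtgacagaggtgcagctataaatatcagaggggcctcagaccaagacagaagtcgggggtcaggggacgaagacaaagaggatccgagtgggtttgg
Traf6: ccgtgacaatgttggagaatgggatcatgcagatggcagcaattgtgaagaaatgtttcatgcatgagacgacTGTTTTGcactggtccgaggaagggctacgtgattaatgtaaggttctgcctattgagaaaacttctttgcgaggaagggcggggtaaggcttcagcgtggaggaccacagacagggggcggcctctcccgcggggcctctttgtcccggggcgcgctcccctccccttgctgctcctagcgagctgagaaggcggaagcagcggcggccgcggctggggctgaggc
Fbxo31: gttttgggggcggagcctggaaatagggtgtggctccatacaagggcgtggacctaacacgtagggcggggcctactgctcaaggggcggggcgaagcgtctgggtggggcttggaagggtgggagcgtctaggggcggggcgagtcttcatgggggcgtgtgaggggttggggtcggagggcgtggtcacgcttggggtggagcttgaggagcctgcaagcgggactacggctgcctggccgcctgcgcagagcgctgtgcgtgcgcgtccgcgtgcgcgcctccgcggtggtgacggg

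In the Trim63 window the reverse of the glucocorticoid receptor core (TGTTCT, at -200 from the gene start) was followed, with no base between them and no overlap, by the reverse of the FoxO core (TGTTTAC, at -194), and an E-box stood at -72. The Traf6 window held the FoxO insulin-response core at -177. The Mul1 window held a STAT palindrome, the second Nedd4 window a STAT palindrome, a glucocorticoid receptor core and an E-box, and the windows of Fbxo30, Fbxo21 and Ubr2 none of the letters. Of all 32851 mouse windows, 3.65% held the FoxO core, 6.28% the insulin-response core, 8.3% the STAT palindrome, 19% the glucocorticoid receptor core, 16.3% the E-box, 0.183% the C/EBP site and 0.155% the kappaB site. No member window held the last 2. These matches describe letters in short windows, and binding was not measured.

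Read counts per gene ranged in total from 19259763 to 74907810 per quadriceps library and from 26306377 to 56308545 per fat library. Levels are given as CPM (counts scaled to a common library total) after scaling of library sizes, and calls required FDR of at most 0.05 and FC of at least 1.5 in the edgeR quasi-likelihood test over the whole table of a tissue. The 8 skeletal muscle markers summed to between 130791 and 196102 CPM in quadriceps, lowest in KPC. In KPC quadriceps 4 of 4 fibroblast markers were called down (sum 154 to 251 CPM against 529 to 563 in no tumor) and the 2 of 6 neutrophil markers in the table were called up (3.19 to 19.1 CPM against 0.0512 to 0.255). Of the 3 satellite cell markers 2 were called down (sum 1.17 to 1.63 CPM against 3.51 to 4.35), as were 2 of the 3 Schwann cell markers (sum 6.75 to 26.9 CPM against 35.9 to 70.5). Of adipocyte (6), macrophage (5) and endothelial (4) markers 2 each were called down, with 1 macrophage marker up, and 1 of the 2 listed pancreas or epithelial tumor markers was called up. Their part in the ligase results was not tested, and in such bulk tissue fewer cells of a type and less RNA per cell cannot be told apart. Each library came from 1 mouse, so p-values weigh a difference between groups against the spread between mice, which was estimated over all groups of a fit.

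In all, 6 of the 9 ligases rose in KPC quadriceps relative to no tumor, and none fell. Of all genes tested, 26.7% were called up and 29% down in this comparison, 55.7% in either direction, and 70.3% had an unadjusted p under 0.05, as did 7 members. The median log2 FC was 1.15 over the 9 members and -0.03 over all genes. Fbxo32 and Trim63 rose about equally and far beyond the other members, ranking at 24 and 22 of 12831 genes by log2 FC. Fbxo31, Fbxo30, Ubr2 and Traf6 followed in that order, and Mul1, Fbxo21 and Nedd4 were not called. The groups did not overlap for 7 members, the 6 called ones and Mul1, against 65.3% of all genes.

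Fbxo32, the F-box receptor of a muscle SCF ligase with MyoD and eIF3f among its described substrates, lies at chr15:58175879-58214932 on the minus strand (GRCm38 throughout). Its level was 177, 146 and 226 CPM in no tumor mice 1 to 3. In KPC mice 1 to 4 it was 7739, 5219, 5577 and 5144 CPM. In KPC IL6KO mice 1 to 4 it was 332, 383, 1081 and 676 CPM. The 3 groups were fully separated, with KPC highest and KPC IL6KO between the others, and the KPC IL6KO mice spread over a 3.25-fold range. The KPC mean was 32.4-fold that of no tumor in the fit (log2 FC 5.02, SE 0.44, edgeR FDR 3.64e-06) and 9.58-fold that of KPC IL6KO (log2 FC 3.26, SE 0.36, edgeR FDR 1.27e-05). Its exons share 186 bases with the antisense gene Gm15943, which neither table lists, and whether counting used the strand is not stated.

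Trim63, the RING ligase MuRF1 that binds the sarcomere and acts on thick filament proteins, lies at chr4:134315120-134329629 on the plus strand, with the paired letters shown above before its start. Its level was 217, 210 and 349 CPM in the no tumor mice. The KPC mice reached 11211, 6917, 7307 and 8699 CPM. The KPC IL6KO mice had 282, 293, 637 and 401 CPM. All KPC mice stood far above the rest, while the KPC IL6KO and no tumor ranges overlapped. The rise in KPC was 33.0-fold over no tumor (log2 FC 5.04, SE 0.37, edgeR FDR 1.51e-06) and 21.2-fold over KPC IL6KO (log2 FC 4.40, SE 0.32, edgeR FDR 1.25e-06). Trim63 ranked between 10 and 13 among all genes by CPM in the 4 KPC libraries, compared with 277 to 480 in no tumor. Fbxo32 and Trim63 together took 1.18 to 1.64% of all quadriceps counts in KPC, 0.0399 to 0.0583% in no tumor and 0.0624 to 0.174% in KPC IL6KO.

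**Figure D1:**
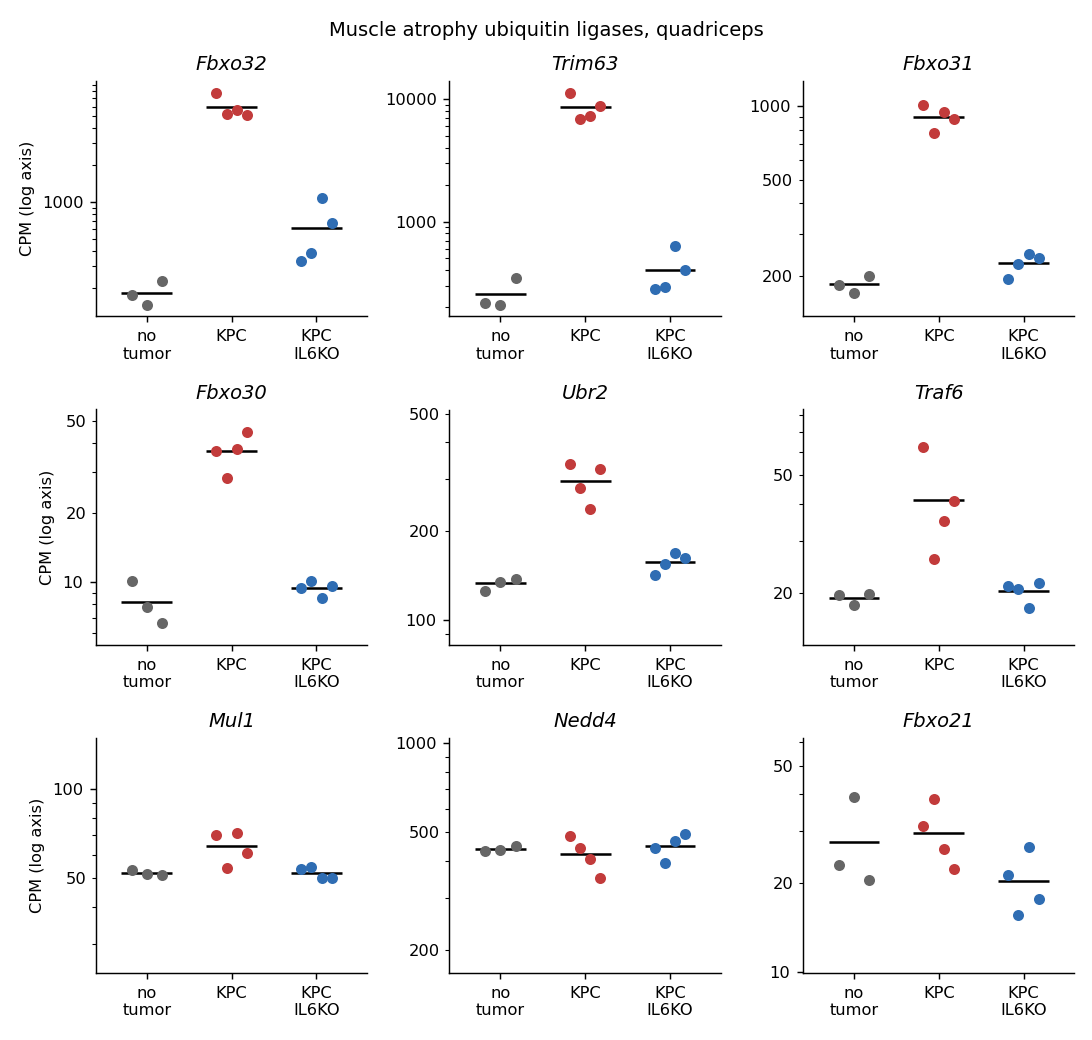
CPM (log axis, a separate range for each gene) of the 9 ligases in each quadriceps library; points are mice and black lines are group means. Fbxo32 reached 5144 to 7739 CPM in KPC. For the 6 called ligases all 4 KPC mice lie above every no tumor and KPC IL6KO mouse. Of all genes, 65.3% had no overlap between KPC and no tumor, and 62% between KPC and KPC IL6KO.

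The other F-box members divided into a rising pair and one without a call. Fbxo31 (chr8:121549440-121578806, minus strand), whose described substrates include cyclin D1 and Cdt1, was at 185, 171 and 202 CPM in no tumor, at 1015, 775, 946 and 883 CPM in KPC, and at 195, 225, 246 and 238 CPM in KPC IL6KO. All KPC mice were far above the other groups, with a CV of 11.3%, and the FDR was the lowest of the members (log2 FC 2.28, SE 0.13, edgeR FDR 7.19e-07 relative to no tumor). Fbxo31 was also 4.00-fold higher in KPC than in KPC IL6KO (log2 FC 2.00, SE 0.12, edgeR FDR 6.54e-07).

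Fbxo30 (MUSA1; chr10:11281330-11298052, plus strand), an F-box protein described in denervated and cachectic muscle, was a low transcript: 10.1, 7.76 and 6.66 CPM in no tumor, 36.98, 28.4, 37.8 and 44.9 CPM in KPC, and 9.45, 10.2, 8.50 and 9.62 CPM in KPC IL6KO. Every KPC mouse was above every other mouse, and the 2 remaining groups overlapped. The rise was 4.50-fold over no tumor (log2 FC 2.17, SE 0.18, edgeR FDR 2.78e-06) and 3.93-fold over KPC IL6KO (log2 FC 1.97, SE 0.16, edgeR FDR 2.10e-06). Fbxo21 (SMART; chr5:117976730-118010201, plus strand), another F-box protein named for atrophying muscle, was at 22.98, 39.2 and 20.5 CPM in no tumor, 31.3, 38.5, 26.2 and 22.3 CPM in KPC, and 21.4, 15.7, 26.6 and 17.6 CPM in KPC IL6KO. Its ranges overlapped in all pairs of groups, and the log2 FC was 0.10 for KPC relative to no tumor (SE 0.26, 95% interval -0.47 to 0.66, edgeR FDR 0.750). Relative to KPC IL6KO the log2 FC was 0.54 (SE 0.24, edgeR FDR 0.0618), and it passed the call without KPC 4 (0.65, FDR 0.0337) or without KPC IL6KO 3 (0.70, FDR 0.0298).

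Ubr2 (chr17:46928295-47010556, minus strand) recognises destabilising N-terminal residues (the N-end rule). It was at 126, 135 and 138 CPM in no tumor, 338, 281, 238 and 325 CPM in KPC, and 142, 155, 169 and 163 CPM in KPC IL6KO. The 3 groups did not overlap. Ubr2 rose 2.22-fold over no tumor (log2 FC 1.15, SE 0.13, edgeR FDR 1.89e-05) and 1.88-fold over KPC IL6KO (log2 FC 0.91, SE 0.12, edgeR FDR 4.54e-05).

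The remaining RING ligases differed from each other in size of change. Traf6 (chr2:101678429-101701669, plus strand), which builds signaling ubiquitin chains upstream of NF-kappaB, was at 19.6, 18.2 and 19.8 CPM in no tumor, 62.4, 26.1, 34.9 and 40.9 CPM in KPC, and 21.2, 20.5, 17.8 and 21.7 CPM in KPC IL6KO. The KPC mice spread over a 2.39-fold range, the widest of the 9 members in that group, but each was above all others (log2 FC 1.10, SE 0.23, edgeR FDR 0.00140 relative to no tumor; 1.02, SE 0.21, FDR 0.00115 relative to KPC IL6KO). Mul1 (chr4:138434671-138442265, plus strand), a ligase of the mitochondrial outer membrane that acts on Mfn2, was at 53.5, 51.7 and 51.3 CPM in no tumor, 70.3, 54.3, 71.2 and 61.1 CPM in KPC, and 53.7, 54.8, 50 and 50.1 CPM in KPC IL6KO. KPC 2 stood close to the no tumor mice, and the change stayed under the fold limit although the FDR passed (log2 FC 0.30, SE 0.11, edgeR FDR 0.0273 relative to no tumor; 0.30, SE 0.10, FDR 0.0180 relative to KPC IL6KO).

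Nedd4 (chr9:72662346-72749852, plus strand), the HECT ligase of the set, was at 432, 436 and 449 CPM in no tumor, 484, 441, 407 and 350 CPM in KPC, and 441, 393, 465 and 494 CPM in KPC IL6KO. The groups overlapped, with a log2 FC of -0.06 for KPC relative to no tumor (SE 0.12, 95% interval -0.33 to 0.21, edgeR FDR 0.670). The interval leaves out a change of 1.5-fold in either direction.

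Per exon length, as FPKM over the GENCODE exons, the order of the members was not the same in each quadriceps group. Trim63 stood first throughout, at 137 ± 41.4 (SD, n = 3) in no tumor, 4525 ± 1030 (n = 4) in KPC and 214 ± 87.4 (n = 4) in KPC IL6KO. Nedd4 was second in no tumor at 47.8 ± 0.985 FPKM, just above Fbxo31 at 42.7 ± 3.49 (lowest Nedd4 library 47.0, highest Fbxo31 library 46.3), and ahead of Fbxo32 at 26.2 ± 5.77. In KPC, Fbxo32 was second at 849 ± 176 FPKM followed by Fbxo31 at 208 ± 23.4, while Nedd4 at 45.8 ± 6.14 and Ubr2 at 38.1 ± 5.91 overlapped between mice. In KPC IL6KO, Fbxo32 came second at 88.6 ± 49.3 FPKM, and Fbxo31 at 51.9 ± 5.18 overlapped with Nedd4 at 48.8 ± 4.65. Fbxo30, Traf6 and Fbxo21 were the 3 lowest in every quadriceps group, between 1.57 and 7.47 FPKM on average.

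In quadriceps of KPC IL6KO mice no member was called relative to no tumor, as for 0% of all genes, and the median log2 FC was 0.20 over the members and 0.00 over all genes. The Fbxo32 estimate was 3.38-fold higher, with every KPC IL6KO mouse above every no tumor mouse (log2 FC 1.76, SE 0.37, 95% interval 0.94 to 2.57, edgeR FDR 0.228). The same difference was called by the edgeR likelihood ratio test (FDR 0.00253) and by DESeq2 (FDR 0.000476), which called 95 and 96 genes in all where the quasi-likelihood test called 0. In the quasi-likelihood test 887 genes (6.91%) had an unadjusted p under 0.05, among them 2 members, Fbxo32 and Fbxo31 (log2 FC 0.28, SE 0.12, edgeR FDR 0.691). The Fbxo32 log2 FC was between 1.34 (without KPC IL6KO 3) and 1.96 when each library was left out. For Trim63 the log2 FC was 0.64 (SE 0.30, 95% interval -0.02 to 1.297, edgeR FDR 0.747), and without KPC IL6KO 3 it was 0.33. The groups did not overlap for Fbxo32 and Ubr2 (log2 FC 0.24, SE 0.13, edgeR FDR 0.828), against 15.5% of all genes.

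For Fbxo30, Traf6, Mul1, Fbxo21 and Nedd4 the log2 FC of KPC IL6KO relative to no tumor was 0.20, 0.08, -0.00, -0.44 and 0.03. Their 95% intervals reached from -1.004 to 0.58 in all, so a change of 1.5-fold was left out for Fbxo30, Traf6, Mul1 and Nedd4, and a fall of that size was not for Fbxo21. Relative to KPC IL6KO, the same 6 members that rose over no tumor were called up in KPC, where 26.4% of all genes were called up, 27.3% down and 53.6% in either direction. The KPC and KPC IL6KO mice did not overlap for these 6 of the 9 members, against 62% of all genes. An unadjusted p under 0.05 was found for 8 members, against 70.9% of all genes. Both comparisons use the same KPC mice.

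The balance of the leading pair differed between tumor groups, as noticed after the values were seen and given without a test. The Trim63 count divided by the Fbxo32 count was 1.23, 1.44 and 1.54 in no tumor and 1.45, 1.33, 1.31 and 1.69 in KPC. In KPC IL6KO it was 0.850, 0.764, 0.590 and 0.593. Fbxo32 counts thus exceeded Trim63 counts in all 4 KPC IL6KO libraries and in none of the other 7. KPC IL6KO 3 and KPC IL6KO 4, with the highest Fbxo32 levels of their group, had the lowest ratios, but Fbxo32 is the divisor and lowers the ratio by definition. The same mice also had the highest Trim63 levels of their group (637 and 401 CPM).

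**Figure D2:**
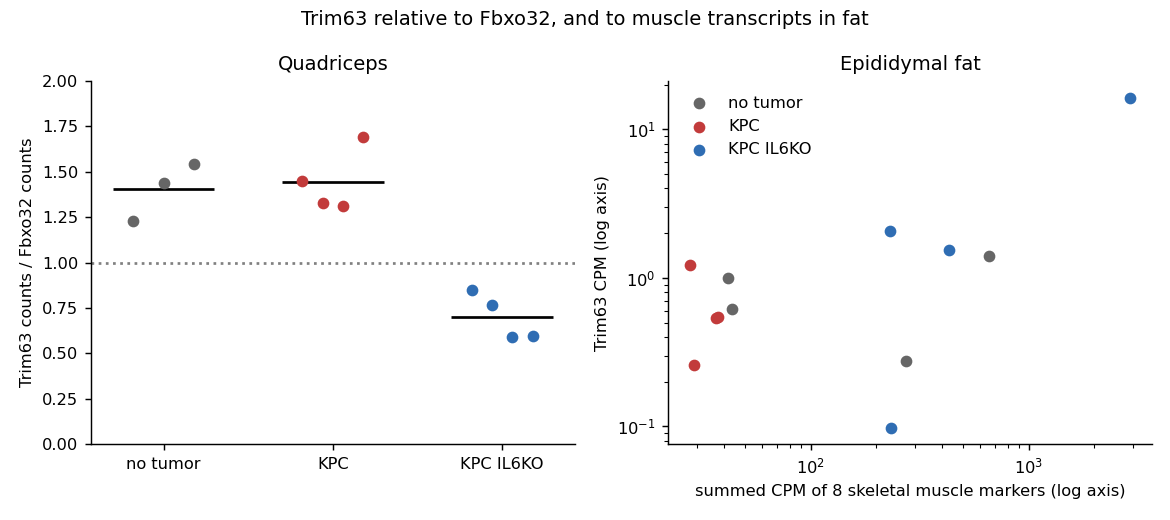
Left, Trim63 counts divided by Fbxo32 counts in each quadriceps library (points, mice; black lines, group means; dotted line, equal counts), with the 4 KPC IL6KO mice between 0.590 and 0.850. Right, Trim63 CPM in each fat library against the summed CPM of 8 skeletal muscle markers (both log axes), where KPC IL6KO 8 lies highest on both.

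Genes with the most similar pattern to the leading pair were sought among 10520 quadriceps genes whose log2 CPM averaged 1 or more, by the root mean square (RMS) difference of centered log2 CPM over the 11 libraries. For Fbxo32 these were Tmem252 (0.44 log2 units), Trim63 (0.53) and 2410006H16Rik (0.58). For Trim63 they were Fam134b (0.20), an endoplasmic reticulum autophagy receptor, 2410006H16Rik (0.28) and Slc39a14 (0.40), a zinc transporter. Fbxo32 was at rank 9 for Trim63. These genes were chosen for likeness over the same libraries, so their changes between groups are no separate result. For KPC IL6KO relative to no tumor, where no gene was called, the log2 FC was 1.76 for Fbxo32, 1.74 for Tmem252, 0.72 for 2410006H16Rik, 0.64 for Trim63, 0.42 for Fam134b and 0.12 for Slc39a14. Ranked by Spearman correlation instead, the nearest were Rabgef1, Clk4 and Zswim7 for Fbxo32 and Rnmt, Klhl7 and Spag9 for Trim63, with rank correlations of 0.99 to 1 but RMS differences of 1.45 to 1.94 log2 units.

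Counts for the other genes of the pathway in KPC quadriceps are read against all genes, of which 26.7% were called up, 29% down and 55.7% in either direction. Of 15 relatives of the members, 5 were called up and 2 down, with a median log2 FC of 0.32. The share called in either direction was smaller than of all genes, and the share called up was larger. Ubr4, a relative of Ubr2, rose most (198 ± 13.8 CPM, SD, n = 3, to 769 ± 78.0 CPM, n = 4; log2 FC 1.96, SE 0.14, edgeR FDR 1.37e-06), and Trim54 (MuRF3) rose as well (log2 FC 1.35, SE 0.14). Fbxo25, the closest relative of Fbxo32, fell by 1.20 on the log2 scale (SE 0.23, edgeR FDR 0.000629), and Trim55 (MuRF2) was the other relative called down. Among 20 other ligases 10 were called up, with Siah1a highest (log2 FC 2.23) and Asb2 most abundant (log2 FC 1.07), and 2 down, Fbxw7 and Trim32 (log2 FC -1.38), with a median of 0.56.

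For SCF partners, neddylation genes and E1 and E2 enzymes, the share called in either direction was again under the 55.7% of all genes. Of 12 SCF partners and neddylation genes, 5 were called up, including the scaffold Cul1 (78.9 ± 8.18 CPM, SD, n = 3, to 275 ± 60.5 CPM, n = 4; log2 FC 1.80, SE 0.17, edgeR FDR 5.91e-06), the adaptor Skp1a and Cops5 (log2 FC 1.247), and 1 down, Commd1 (log2 FC -1.246), with a median of 0.38. Of 20 E1 and E2 enzymes, 7 were called up, led by Ube2o (log2 FC 2.08), and 2 down, Ube2d1 and Uba6 (log2 FC -1.19), whereas Ube2b, an E2 known to work with Ubr2, had a log2 FC of 0.57, just under the fold limit. The median of these enzymes was 0.28. Of 16 deubiquitinases, 9 were called up, led by the proteasomal Usp14 (log2 FC 2.09), and 2 down, Usp2 (log2 FC -1.44) and Tnfaip3, with a median of 0.76.

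Of 24 described regulators, 16 were called up and 1 down, with a median log2 FC of 1.19 against -0.03 over all genes. Cebpd was highest (31.0 ± 12.4 CPM, SD, n = 3, to 467 ± 149 CPM, n = 4; log2 FC 3.92, SE 0.53, edgeR FDR 6.46e-05), Foxo1, Foxo3, Stat3, Klf15 and Atf4 (log2 FC 2.14) were among the others, and Smad3 fell by 2.02 on the log2 scale. Of 24 substrates and partners, 4 were called up and 6 down with a median of -0.01. Eif4ebp1, a translation repressor, was highest (log2 FC 3.95) and Ccnd1 (cyclin D1), a described Fbxo31 substrate, lowest (10.6 ± 1.71 to 0.680 ± 0.213 CPM; log2 FC -3.95, SE 0.32, edgeR FDR 2.32e-06), while Cdt1, another one, was called up. Eif3f, a described Fbxo32 substrate, and Des (desmin) were also called up. Acta1, Mylpf, Myl1, Vim and Myod1 were the other substrates called down. Ligases act on substrate protein, which was not measured here, so these transcript changes do not show whether a substrate was degraded. In KPC IL6KO relative to no tumor none of the genes in these lists was called. Relative to KPC IL6KO, 15 regulators were called up and 1 down in KPC, and 4 substrates up and 6 down. Calls up and down were 5 and 2 for relatives, 8 and 2 for other ligases, and 5 and 1 for SCF and neddylation genes. They were 7 and 2 for E1 and E2 enzymes and 8 and 2 for deubiquitinases. Of all genes, 26.4% were called up and 27.3% down. Asb2 was not called in this comparison (log2 FC 0.40, SE 0.25, edgeR FDR 0.168).

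**Figure D3:**
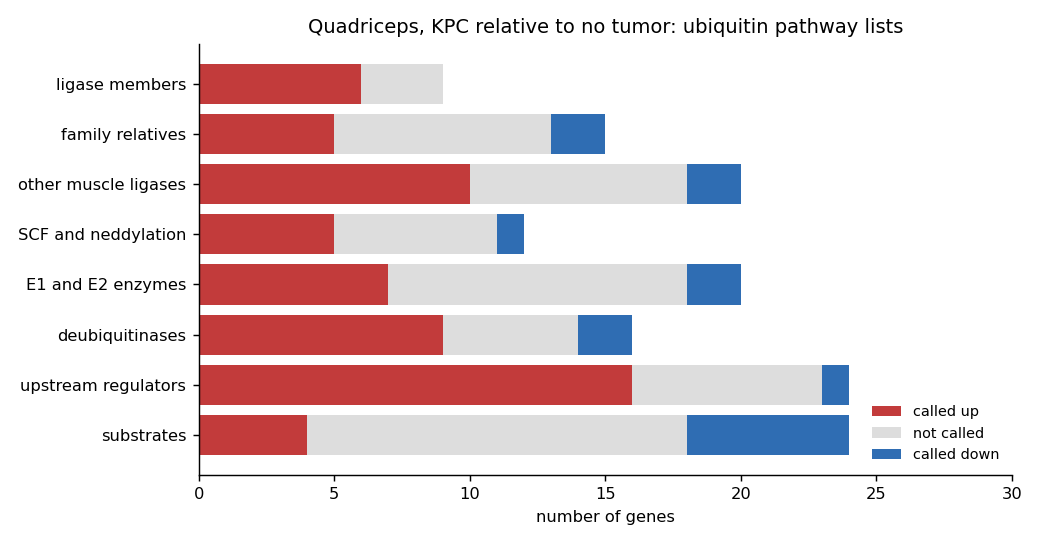
Number of genes called up, not called and called down in KPC relative to no tumor quadriceps, for the 9 ligases and 7 lists of the ubiquitin pathway. The regulators hold 16 called up of 24 and the substrates 4 up and 6 down of 24, where 26.7% of all genes were called up and 29% down.

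In epididymal fat none of the 9 members was called in any comparison, as for 0% of all genes in each. At an unadjusted p under 0.05 there were 2061 genes (12.2%) for KPC and 1584 (9.34%) for KPC IL6KO relative to no tumor, and 1062 (6.26%) between the tumors. The edgeR likelihood ratio test called 413, 209 and 66 genes and DESeq2 585, 286 and 125, again with no member. None of the pathway genes described in muscle that the fat table lists was called in the quasi-likelihood test. The fat libraries were unlike each other, and epididymis markers outweighed adipocyte markers in 11 of 12: 8 epididymis markers summed to 840 to 82297 CPM, 6 adipocyte markers to 548 to 10900 CPM and 8 skeletal muscle markers to 28.0 to 2931 CPM. The biological coefficient of variation was 63.5% in fat and 22.7% in quadriceps, which limits what could be detected in fat.

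Trim63 was near the floor of 3 counts (0.0474 to 0.123 CPM) in some fat libraries. No tumor mice 5 to 8 had 0.614, 0.277, 1.00 and 1.41 CPM, KPC mice 5 to 8 had 1.23, 0.544, 0.539 and 0.260 CPM, and KPC IL6KO mice 5 to 8 had 0.0982, 2.06, 1.55 and 16.4 CPM. KPC IL6KO 8, with 535 counts where the others had 4 to 89, also had the highest muscle marker sum (2931 CPM against 28.0 to 655 CPM in the other 11 libraries), and the part of muscle transcripts in its Trim63 level was not tested. The log2 FC of KPC IL6KO relative to no tumor was 2.59 (SE 1.15, edgeR FDR 0.529) and 0.57 without this library. For KPC relative to KPC IL6KO it was -2.96 (SE 1.17, edgeR FDR 0.714) and -0.93 without it. For KPC relative to no tumor it was -0.37 (SE 1.10, edgeR FDR 0.914).

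Fbxo32 was at 46.2, 55.8, 34.6 and 74.8 CPM in no tumor, 32.9, 40.4, 23.7 and 27.6 CPM in KPC, and 43.3, 56.5, 21.7 and 120 CPM in KPC IL6KO fat. The highest value was again that of KPC IL6KO 8, and the groups overlapped. The log2 FC was -0.76 for KPC relative to no tumor (SE 0.44, 95% interval -1.72 to 0.20, edgeR FDR 0.531) and 0.19 for KPC IL6KO (SE 0.43, FDR 0.885), which was -0.38 without KPC IL6KO 8.

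Fbxo21 was at 52.8, 257, 40.5 and 75.1 CPM in no tumor, 39.5, 39.0, 38.3 and 45.4 CPM in KPC, and 45.8, 36.2, 91.2 and 45.5 CPM in KPC IL6KO fat. The 3 highest libraries, no tumor 6, KPC IL6KO 7 and no tumor 8, were also the 3 with the highest adipocyte marker sums, at 10900, 6411 and 3254 CPM, and the part of adipocyte content was not tested. The log2 FC was -1.39 for KPC relative to no tumor (SE 0.53, edgeR FDR 0.342), and -0.47 without no tumor 6. Fbxo21 was the only member with an unadjusted p under 0.05 in that comparison.

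Fbxo30 was at 22.6, 33.7, 28.5 and 77.8 CPM in no tumor fat, 30.2, 26.4, 34.1 and 26.99 CPM in KPC and 17.6, 20.2, 25.8 and 32.0 CPM in KPC IL6KO. Fbxo31 was at 25.6, 52.97, 23.5 and 28.6 CPM, 60.4, 47.3, 35.6 and 32.4 CPM, and 46.6, 34.2, 41.3 and 52.2 CPM in the same order of groups. Mul1 was at 38.1, 36.5, 38.4 and 41.3 CPM in no tumor, 33.0, 30.2, 31.9 and 29.2 CPM in KPC, and 25.6, 39.3, 32.7 and 30.1 CPM in KPC IL6KO. Mul1 was the only member whose KPC and no tumor fat libraries did not overlap (log2 FC -0.31, SE 0.14, edgeR FDR 0.414), against 10.9% of all genes. Between the other pairs of fat groups every member overlapped, and 2.01% (KPC IL6KO and no tumor) and 4.33% (KPC and KPC IL6KO) of all genes did not. Ubr2 and Traf6 lay within narrow ranges over all 12 libraries, at 87.0 to 132 and 37.8 to 57.1 CPM. Nedd4 had the highest FPKM of the 9 in each fat group, at 94.0 ± 29.3 (SD, n = 4) in no tumor, 102 ± 24.3 (n = 4) in KPC and 125 ± 45.0 (n = 4) in KPC IL6KO, and Trim63 the lowest.

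**Figure D4:**
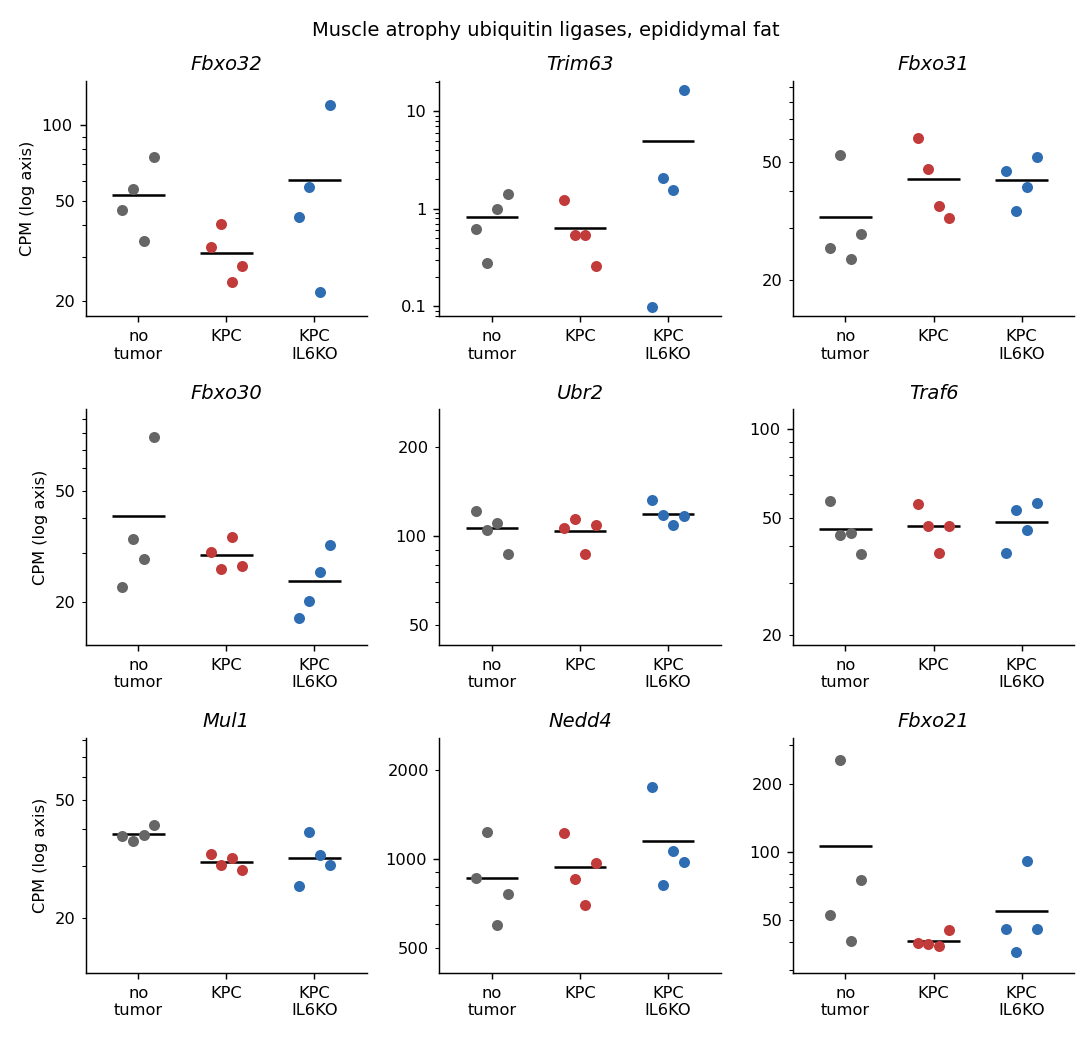
CPM (log axis, a separate range for each gene) of the 9 ligases in each epididymal fat library; points are mice and black lines are group means. Trim63 reached 16.4 CPM in KPC IL6KO 8 and Fbxo21 257 CPM in no tumor 6, and the groups overlap except for Mul1 in KPC and no tumor.

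The response to the tumor was then compared between tissues with an interaction test over all 23 libraries and the 12599 genes in both tables, with 18.1% of genes called higher and 18.8% lower in quadriceps, 36.9% in all. The KPC response was called higher in quadriceps for 6 members. The difference in log2 FC was 5.68 for Fbxo32 (SE 0.67, edgeR FDR 5.13e-06) and 5.34 for Trim63 (SE 1.29, edgeR FDR 0.00318). It was 2.54 for Fbxo30 (SE 0.45, edgeR FDR 0.000255), 1.74 for Fbxo31 (SE 0.34, edgeR FDR 0.000567), 1.06 for Ubr2 (SE 0.18, edgeR FDR 0.000130) and 0.94 for Traf6 (SE 0.28, edgeR FDR 0.0129). For Traf6 the call was lost in limma voom with weights (FDR 0.0653). For Mul1 (0.50, edgeR FDR 0.0282) the difference was under the fold limit, and for Fbxo21 (1.38, edgeR FDR 0.0952, or 0.47 without fat no tumor 6) and Nedd4 (-0.29, edgeR FDR 0.530) it was not called. Tissue, library preparation, sequencing run and any difference in the mice used cannot be told apart here. The spread of each gene was estimated over both tissues together, and a pairing of tissues by mouse was not modeled. For the KPC IL6KO response no member was called, as for 0% of all genes, while 1003 genes and 2 members, Fbxo32 and Fbxo30, had an unadjusted p under 0.05 in edgeR, and DESeq2 and the likelihood ratio test called 46 and 39 genes. The difference was 1.62 for Fbxo32 (SE 0.62, edgeR FDR 0.531) and 1.03 for Fbxo30 (SE 0.44, edgeR FDR 0.575).

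**Figure D5:**
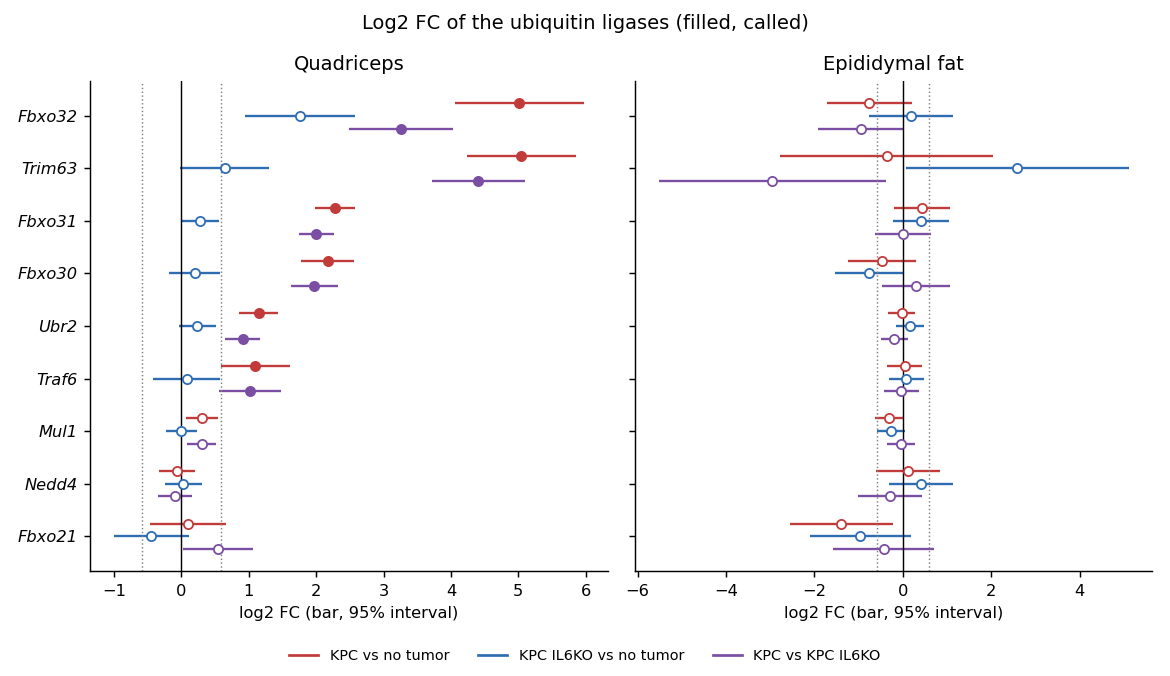
Log2 FC of the 9 ligases in quadriceps (left) and epididymal fat (right) for the 3 comparisons; bars are 95% intervals, filled points passed FDR and FC, dotted lines mark an FC of 1.5, and each panel has its own scale. Fbxo32 and Trim63 stand near 5 in quadriceps KPC relative to no tumor, and no fat point is filled.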

How the data were processed

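Per the labels and the study's methods, RNA from snap-frozen tissue was made into strand-specific libraries. The labels and the methods name different kits, and quadriceps and fat were isolated and sequenced separately. Reads were assessed with FastQC and aligned to mm10 with STAR. The submitters' processing notes name featureCounts 1.5.1 and edgeR 3.12.1. The authors removed 1 no tumor muscle sample. The deposited tables hold raw counts per gene.

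Counts were tested in R 4.3.3 with the edgeR 4.0.16 quasi-likelihood test, TMM scaling, filterByExpr (0 genes removed) and the 3 groups of a tissue in 1 fit, and a tissue by group interaction over 23 libraries. FDR is Benjamini-Hochberg over all genes. Called means FDR of at most 0.05 and FC of at least 1.5. The SE was derived from the F statistic. The test was checked on simulated counts. No 2 libraries of a group agreed within counting noise. Positions and FPKM used GENCODE M21 (GRCm38, the build of mm10), and promoter windows came from RefSeq. Alternatives used DESeq2 1.42.0, limma 3.58.1, other edgeR forms, filters and left-out libraries. Figures were drawn with matplotlib 3.10.9.

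The members and lists were chosen with earlier results of these data known. The result of 1 list is not reported here. All members are named. For each list the genes with the highest and lowest log2 FC in KPC quadriceps, the highest mean CPM, or a call in KPC IL6KO are named with values, and others are named only for their call.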

Additional observations from a re-analysis of the deposited data

Results flagged for a closer look

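By the ratio of the gap to the range, 4 levels were flagged as outlying within their group. They were Fbxo32 in quadriceps KPC 1 (7739 CPM), Trim63 in fat KPC IL6KO 8 (16.4 CPM), Fbxo21 in fat no tumor 6 (257 CPM) and Fbxo21 in fat KPC 8 (45.4 CPM). The last lay in a narrow group (38.3 to 45.4 CPM, CV 8.01%), so its distance in CPM was small. Groups of 4 were examined for every member, 45 in all, and chance marks about 1 in 20 such groups.

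The KPC response differed between tissues for 6 members by the edgeR interaction test, each higher in quadriceps than in fat. Of all genes tested, 36.9% were called in the same test and 18.1% were called higher in quadriceps. The differences in log2 FC were 5.68 for Fbxo32, 5.34 for Trim63, 2.54 for Fbxo30, 1.74 for Fbxo31, 1.06 for Ubr2 and 0.94 for Traf6.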

How the results depend on the processing

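The 6 members called in quadriceps KPC, relative to no tumor and to KPC IL6KO, were called under every alternative run. In quadriceps KPC IL6KO relative to no tumor, 1 member (Fbxo32) was called by DESeq2 and by the edgeR likelihood ratio test, and 0 otherwise. Genes called there numbered 96 (DESeq2) and 95 (likelihood ratio), and 0 to 2 with a library left out. In fat KPC relative to no tumor they numbered 585 (DESeq2), 413 (likelihood ratio), 16 (newer quasi-likelihood form), 174 (only the groups compared), 775 (epididymis markers as covariate), 393 (only libraries with Gpx5 over 1000 CPM) and 0 to 15 with a library left out, highest without KPC IL6KO 6. In fat KPC IL6KO relative to no tumor they were 286, 209 and 0 to 13 (highest without KPC IL6KO 6) for DESeq2, likelihood ratio and left-out libraries. Between the tumors in fat they were 125 (DESeq2), 66 (likelihood ratio) and 1 (newer form). For the KPC IL6KO response between tissues they were 46 (DESeq2), 39 (likelihood ratio) and 0 to 112 (highest without fat KPC IL6KO 6). No fat alternative called a member. The cause was not tested.

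Signs turned only for log2 FC that were not called. Mul1 in quadriceps KPC IL6KO was 0.018 (DESeq2), 0.018 (RLE), 0.0030 (only the groups compared) and 0.021 (replicate block). In fat KPC relative to no tumor, Ubr2 was 0.0053 (only the groups compared), Trim63 0.10 (replicate block), Traf6 -0.030 (covariate) and -0.021 (Gpx5), and Fbxo30 0.29 (Gpx5). In fat KPC IL6KO relative to no tumor, Ubr2 was -0.0057 and Mul1 0.013 (Gpx5). Between the tumors in fat, Fbxo31 was -0.034 (replicate block), Fbxo21 0.43 and Nedd4 0.24 (covariate), and Fbxo21 0.27 and Nedd4 0.31 (Gpx5). With a library left out, the ranges across 0 in quadriceps were -0.072 to 0.44 for Fbxo21 and -0.14 to 0.016 for Nedd4 (KPC), and -0.025 to 0.019 for Mul1 and -0.020 to 0.088 for Nedd4 (KPC IL6KO). In fat KPC they were -0.66 to 0.058 for Fbxo30, -0.041 to 0.34 for Nedd4, -0.055 to 0.16 for Traf6, -0.88 to 0.023 for Trim63 and -0.11 to 0.050 for Ubr2. In fat KPC IL6KO they were -0.38 to 0.45 for Fbxo32 and -0.0053 to 0.20 for Traf6. Between the tumors in fat they were -0.18 to 0.13 for Fbxo31, -0.13 to 0.077 for Mul1 and -0.14 to 0.051 for Traf6. For the KPC IL6KO response between tissues they were -0.35 to 0.92 for Fbxo21, -0.41 to 0.025 for Fbxo31, -0.059 to 0.11 for Traf6 and -2.28 to 0.18 for Trim63. For the KPC response between tissues, Mul1 was called with RLE (0.60) and DESeq2 (0.60). Fbxo21 was called with DESeq2 (1.46) and without fat no tumor 5 or 7 (1.61 and 1.65). Members called thus numbered 5 (limma voom, without Traf6) to 8 (DESeq2). The share of all genes that DESeq2 and limma voom called for this response is not given here, so these counts cannot be read against it.

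Replicate numbers were taken as labels of different mice. Correlations of same-numbered libraries ran from -0.15 to 0.26 in quadriceps (median 0.058) and from -0.54 to 0.65 in fat (median 0.17). With so few libraries per group these values cannot decide whether the numbers pair mice. With the replicate block, 6, 0 and 6 members and 7043, 0 and 6858 genes were called in quadriceps, and 0 in fat, so no member call changed. Groups of 3 or 4 mice and the spread between fat libraries limit small changes there.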
